A study of Bos taurus with 147 samples.

Results

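Genes of the extracellular matrix and its integrin receptors were examined in the adrenal cortex of 145 F2 cows from a cross of Charolais sires with German Holstein cows. A transcript was included where the platform annotation gave it a single gene symbol that starts as those of collagen chains, laminins, fibulins, fibrillins, ADAMTS and MMP proteases, TIMP inhibitors or integrin subunits do. The rule took 31 of 10986 transcripts, which carry 28 symbols, because LAMA4 was represented by 3 transcripts and TIMP2 by 2. They comprised 4 transcripts of collagens, 6 of laminins, 3 of fibulins and fibrillins, 2 of ADAMTS proteases, 3 of MMPs, 5 of TIMPs, 4 of integrin alpha subunits and 2 of integrin beta subunits. The other 2, ITGB1BP1 and ITGB3BP, match the rule by name only. ITGB1BP1 encodes a cytoplasmic protein that binds the tail of integrin beta 1, and ITGB3BP encodes a protein best known from the centromere.

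All animals were females for which no treatment was named, kept in the same barn and on the same feed, and slaughtered at a fixed day after calving when 1127 to 1774 days old. They came from a few half-sib and full-sib families. The cortex was dissected from the medulla, and RNA of each cow was hybridised to 1 custom Affymetrix Bovine Gene array. A value is a log2 signal that summarises the probes along a transcript. The labels place the cows in 25 classes of year and season of slaughter with 2 to 13 cows each. The 8 successive years are numbered here from year 1 (Summer2004 and autumn2004 in the labels) to year 8 (2011), and held 7, 11, 6, 22, 39, 24, 21 and 15 cows. Winter cows were assigned to the year in which that winter started. Of these cows 45 were slaughtered in summer, 36 in spring, 38 in autumn and 26 in winter.

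The adrenal cortex is built of cords of steroid-producing cells that rest on thin basement membranes beside wide capillaries, and the whole is wrapped in a fibrous capsule. Laminins and type IV collagen form the sheets of the basement membrane, whereas the fibrillar collagens, collagen VI, fibrillin and fibulins make the fibres and microfibrils of the capsule and the stroma between the cords. MMP and ADAMTS proteases cut these proteins, TIMPs block the proteases, and integrins, dimers of an alpha and a beta subunit, tie the cell to laminins, collagens, fibronectin or vitronectin and pass signals inwards.

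The arrays were alike, with the median correlation of an array with the others between 0.950 and 0.979 over transcripts, which are not independent replicates. Markers of adrenocortical cells were high in every cow, the mean over 8 measured genes such as CYP11A1 and HSD3B1 being between 12.09 and 12.54 log2 units. The mean over 5 chromaffin cell markers such as TH and DBH ran from 7.20 to 12.15, so the signal of these genes differed widely between samples. Whether this stands for different amounts of medulla was not tested. The first principal component of all transcripts held 27.1% of the variance between arrays and 25.0% of the variance of a median transcript. Its score fell with the year of slaughter by 0.134 SDs per year (standard error 0.044). What this axis stands for was not tested, and results are therefore given with and without it.

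Levels differed between cows by different amounts from gene to gene. After the class and the age were fitted, the residual SD had a median of 0.32 log2 units over the 31 transcripts, and 0.25 over all transcripts. The largest residual SD was that of MMP7, which encodes matrilysin, a small protease of epithelial cells. Its log2 signal was lowest at 6.73, had a median of 8.53 and reached 9.91 (residual SD 0.58). ADAMTS1, a protease of the proteoglycans aggrecan and versican, ran from 6.90 over a median of 7.93 to 9.07 (residual SD 0.52). COL12A1, a collagen that lies on the surface of collagen fibrils, ran from 8.24 over 9.29 to 10.51 (residual SD 0.43), MMP2, a gelatinase, from 7.02 over 7.95 to 9.31 (0.42), and the LAMA4 transcript of cluster 12896371 from 4.99 over 6.30 to 7.31 (0.41). LAMA4 encodes the laminin alpha chain of vascular basement membranes.

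At the other end the values differed less between cows. TIMP2 cluster 12760918 had the smallest residual SD, 0.095, with values from 12.78 over 13.03 to 13.21. The other TIMP2 transcript, cluster 12766730, had a lower mean of 7.95 and a residual SD of 0.30, so both did not share the small spread. Adrenocortical markers with means from 13.13 (CYP17A1) to 13.85 (HSD3B1) also had small SDs, 0.11 and 0.035 for these genes. Whether such high signals limit the spread was not tested. ITGA9, the alpha subunit of a receptor for tenascin C and other ligands, ran from 11.18 over 11.60 to 12.05 (residual SD 0.18). ITGB1BP1 ran from 7.79 over 8.41 to 8.81 (0.19), TIMP3, a matrix-bound inhibitor of ADAMTS and MMP proteases, from 11.38 over 11.90 to 12.35 (0.19), and COL4A4, a chain of type IV collagen, from 7.54 over 8.19 to 8.61 (0.20). Probes differ in their response, so levels of different transcripts were not set against each other.

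**Figure D1:**
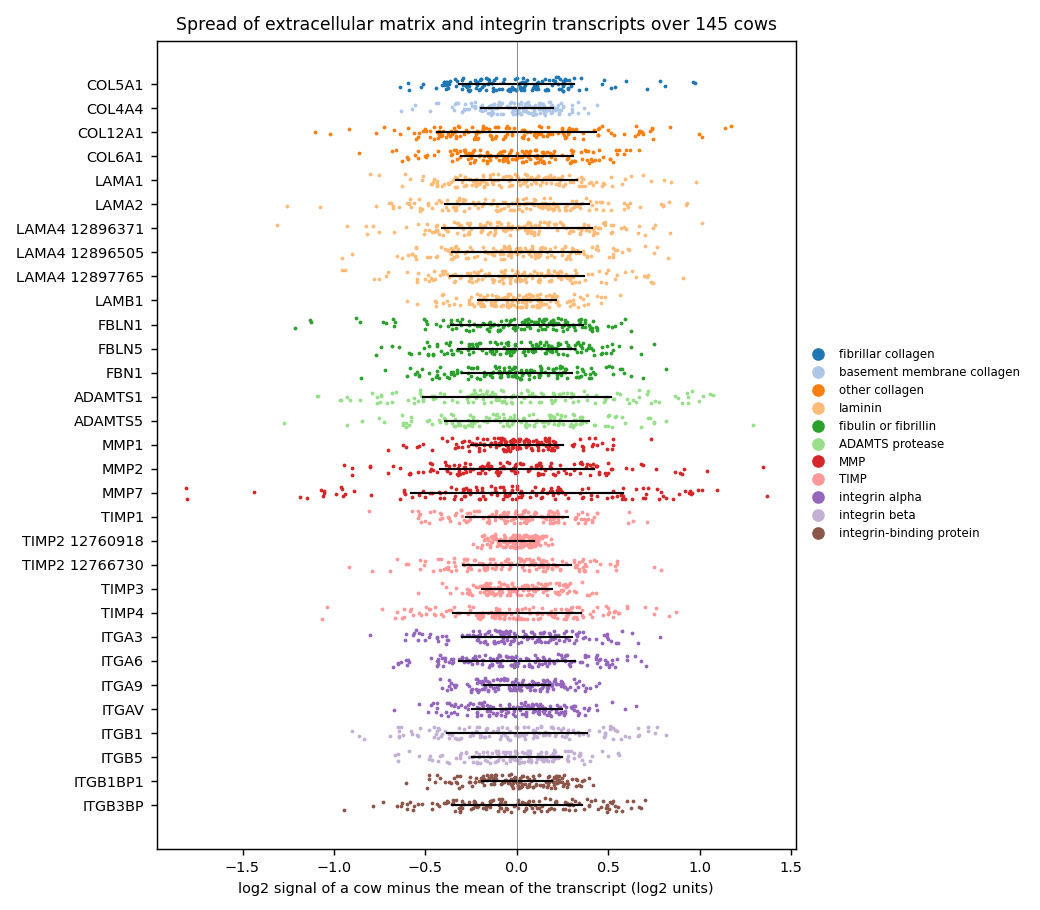
Log2 signal of each of 145 cows minus the mean of the transcript, in log2 units, for 31 extracellular matrix and integrin transcripts listed down the page and coloured by family. The black line spans 1 residual SD to either side, and is widest for MMP7 (0.58) and narrowest for TIMP2 cluster 12760918 (0.095).

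The residuals of 28 transcripts were described by 1 normal component, and those of 3 by more. For COL4A4, 17 cows lay around -0.32 and 128 around 0.05. For FBLN1, which encodes fibulin 1 of basement membranes and elastic fibres, 12 cows lay around -0.68 and 133 around 0.07. For FBLN5, a fibulin needed for the assembly of elastic fibres, 64 cows lay around -0.25 and 81 around 0.21. The components of these genes lay 2.78, 3.14 and 2.65 component SDs apart, in the order named, so they overlap.

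The first comparison asked how expression changed with the year of slaughter. Transcripts of structural proteins and integrin subunits that passed the test fell, and transcripts of proteases and inhibitors that passed it rose. Of 13 structural transcripts (collagens, laminins, fibulins and fibrillin), 5 fell and none rose, and of 6 integrin subunits 3 fell and none rose. Of 10 transcripts of proteases and inhibitors 4 rose and none fell. Of the 31 transcripts, 14 had a slope on year with an adjusted p below the threshold of 0.05 (limma, p-values adjusted by Benjamini-Hochberg over all transcripts), or 45.2%. Over all 10986 transcripts 44.9% were called, 25.7% rising and 19.2% falling, so the number called among the 31 was that of any transcripts. The grouping by role was made with the slopes in view and has no test. The labels give neither extraction nor scan date, so the year of slaughter cannot be told apart from time in storage or from the time of array processing. Family was not in these fits, and cows of a family were treated as independent, so their p-values may be too small. Whether the families differed between years was not tested. In bulk RNA, fewer cells of a type cannot be told apart from less RNA per cell.

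Among the structural genes, LAMA2, the laminin alpha chain of muscle and nerve basement membranes, fell each year by 0.062 log2 units (standard error 0.017; adjusted p = 0.00121, from limma as for all slopes). Its median was 7.57 in year 8, with values of 7.07 to 8.23 in 15 cows, and 7.92 in year 1, with values of 7.66 to 8.56 in 7 cows. Both years overlapped between 7.66 and 8.23. FBN1, the fibrillin of microfibrils, fell by 0.049 per year (0.013, adjusted p = 8.46e-04). It ran from 7.48 over a median of 8.06 to 8.61 in year 8, and from 8.07 over 8.37 to 8.72 in year 1, so the cows of year 8 reached lower but overlapped those of year 1.

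COL12A1 fell by 0.048 per year (0.019, adjusted p = 0.0255), LAMA1, a laminin alpha chain of epithelial basement membranes, by 0.033 (0.014, adjusted p = 0.0459) and COL4A4 by 0.026 (0.0084, adjusted p = 0.00859). These calls were less firm: without the cows of year 8 the adjusted p was 0.155 for COL4A4 and 0.424 for LAMA1, without those of year 7 it was 0.181 for COL12A1 and 0.163 for LAMA1, without those of year 2 it was 0.0892 for COL12A1, and without those of year 4 it was 0.0877 for LAMA1. LAMA1 was not called without the random block either (adjusted p = 0.0603). The other structural transcripts were not called. COL5A1, a fibrillar collagen that sets the width of fibrils, had a slope of -0.0037 (adjusted p = 0.841, 95% interval -0.029 to 0.022). COL6A1, a chain of the beaded filaments of collagen VI, had -0.028 (adjusted p = 0.0839). The 3 LAMA4 transcripts had slopes of -0.0092 to -0.025 (adjusted p of 0.180 or more), LAMB1, the common laminin beta chain, had -0.018 (adjusted p = 0.121), but -0.031 (adjusted p = 0.0147) without the cows of year 1. FBLN1 had 0.0034 (adjusted p = 0.880) and FBLN5 had -0.023 (adjusted p = 0.164).

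Among the proteases and inhibitors, TIMP4 rose each year by 0.063 log2 units (0.015, adjusted p = 2.43e-04). Its yearly means from year 1 to year 8 were 8.55, 8.43, 8.58, 8.57, 8.56, 8.79, 8.79 and 8.84, with SDs of 0.24 to 0.40 within a year. The means of years 6 to 8 were thus all above those of years 1 to 5. The TIMP2 transcript of cluster 12766730 rose by 0.057 per year (0.013, adjusted p = 1.07e-04), and its values were 7.96 to 8.50 with a median of 8.19 in year 8, against 7.53 to 7.99 with a median of 7.70 in year 1. Both sets met only at their edges. Without the cows of year 8 its slope was 0.038 (adjusted p = 0.0478).

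The other TIMP2 transcript, cluster 12760918, had a slope of 0.0097 (adjusted p = 0.0668), and was called without the cows of year 1 (0.015, adjusted p = 0.0154) or year 6 (0.011, adjusted p = 0.0455). The residuals of both TIMP2 transcripts were correlated over the cows with r = 0.60 (rho = 0.56, permutation test, adjusted p = 3.5e-05), so they shared part of their variation. MMP7 rose by 0.078 per year (0.025, adjusted p = 0.00701; 0.0953 without the cows of year 8), the steepest slope of the 31. MMP1, interstitial collagenase, rose by 0.026 (0.011, adjusted p = 0.0349), but its adjusted p was 0.0711, 0.298, 0.0578 and 0.117 when the cows of years 1, 2, 7 and 8 were left out in turn. ADAMTS1, ADAMTS5, MMP2, TIMP1 and TIMP3 were not called, with adjusted p from 0.0635 for TIMP1 to 0.890 for ADAMTS1. TIMP1 was called without the cows of year 1 (adjusted p = 0.0437) or year 5 (0.0480).

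**Figure D2:**
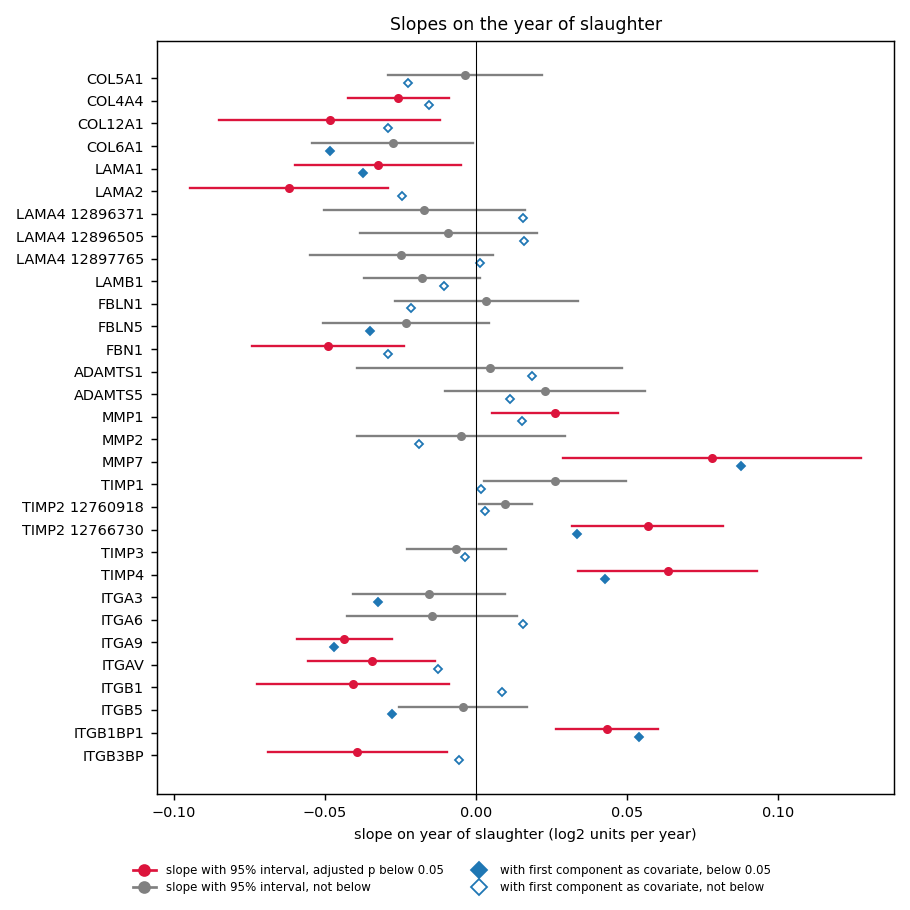
Slope on year of slaughter in log2 units per year for 31 transcripts, with circles and lines for the estimate and its 95% interval and diamonds for the estimate with the first principal component as a covariate. The slope of ITGB1 is -0.041 without the covariate and 0.0085 with it, whereas that of ITGA9 is -0.044 without it and -0.047 with it.

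The integrin alpha 9 gene had the smallest p for the slope on year of the 31 transcripts. ITGA9 fell each year by 0.044 log2 units (0.0079, adjusted p = 2.21e-06), and its adjusted p reached at most 4.13e-04 over 14 alternative fits. In year 8 its values were 11.22 to 11.61 with a median of 11.56 (15 cows), and in year 1 they were 11.64 to 11.96 with a median of 11.84 (7 cows). All cows of year 8 thus lay below all cows of year 1. The 7 cows of the last winter, which count for year 7, had values of 11.38 to 11.85, and with them the years would overlap. Such a gap between both years was found for 1 of the 31 transcripts and for 0.646% of all transcripts.

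Other integrin subunits fell less firmly. ITGAV, the alpha subunit of vitronectin receptors, fell by 0.035 per year (0.011, adjusted p = 0.00496; 0.0529 without the cows of year 2). ITGB1, the beta subunit shared by most receptors for collagens and laminins, fell by 0.041 (0.016, adjusted p = 0.0304; 0.170 without year 2 and 0.208 without year 8). ITGA3 and ITGA6, subunits of laminin receptors, had slopes of -0.016 and -0.015 (adjusted p = 0.321 and 0.415), and ITGB5, which pairs with ITGAV, had -0.0044 (adjusted p = 0.768). Of the genes that match by name only, ITGB1BP1 rose by 0.043 (0.0086, adjusted p = 1.3e-05), with values of 7.79 to 8.74 in year 8 and 7.92 to 8.52 in year 1, and ITGB3BP fell by 0.039 (0.015, adjusted p = 0.0243; 0.135 without year 2). In the cows of years 4 to 8 alone, 12 transcripts were called, beside 34.0% of all transcripts. Of the 14 calls 9 remained, and those of ITGAV (adjusted p = 0.216), ITGB1 (0.131, with a slope of -0.050), ITGB3BP (0.390), LAMA2 (0.145) and MMP1 (0.537) did not. LAMB1 (-0.046 per year, adjusted p = 0.0113), TIMP1 (0.049, 0.0290) and TIMP2 cluster 12760918 (0.019, 0.0240) were called in these years, and slopes were steeper for LAMA1 (-0.077, adjusted p = 0.00241), COL12A1 (-0.076, 0.0395) and TIMP4 (0.096, 7.91e-04).

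**Figure D3:**
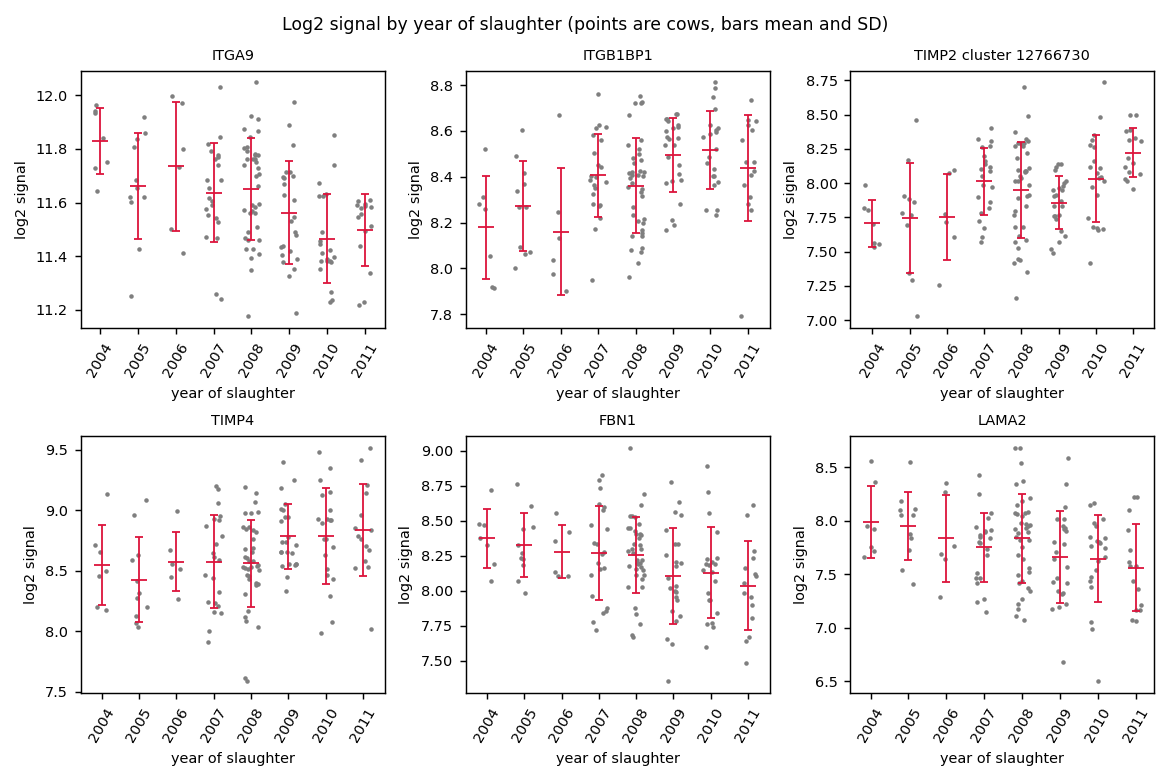
Log2 signal of each cow (points) by year of slaughter for ITGA9, ITGB1BP1, TIMP2 cluster 12766730, TIMP4, FBN1 and LAMA2, with the mean and SD of each year in red (6 to 39 cows per year; the axis gives calendar years, from year 1 on the left to year 8 on the right). The ITGA9 values of year 8, at most 11.61, lie below those of year 1, at least 11.64.

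Which of these genes were called depended on the axis shared by all arrays. With the first principal component as a covariate 10 transcripts were called, 4 rising and 6 falling, and 6 of them were among the 14 called without it. Over all transcripts 41.4% were called in this fit, 23.9% rising and 17.4% falling. ITGA9 (-0.047 per year), LAMA1 (-0.037), MMP7 (0.088), TIMP4 (0.043), TIMP2 cluster 12766730 (0.033) and ITGB1BP1 (0.054) kept their calls. COL4A4, COL12A1, FBN1, ITGAV, ITGB1, ITGB3BP, LAMA2 and MMP1 lost theirs, with adjusted p from 0.050 for FBN1 to 0.741 for ITGB3BP, and the slope of ITGB1 turned to 0.0085. COL6A1 (-0.048), FBLN5 (-0.035), ITGA3 (-0.032) and ITGB5 (-0.028) were called with the covariate alone. By role, 3 structural transcripts and 3 integrin subunits then fell and none rose, and 3 transcripts of proteases and inhibitors rose and none fell.

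The members followed this axis to very different degrees. It accounted for 90.7% of the variance of ITGB1, and for more only in 6 of the 10986 transcripts. It held 54.9% of the variance of ITGB3BP, 50.8% of ITGA6, 48.6% of LAMA2, 46.0% of ITGAV and, with the opposite sign, 44.8% of ITGB5 and 41.8% of TIMP1. By contrast it held 0.0998% of the variance of ITGA9, 0.241% of MMP7 and 0.526% of LAMA1.

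The joint effect of the year-season classes was called for 2 of the 31 transcripts, against 11.6% of all transcripts. For ITGA9 (F = 2.28, adjusted p = 0.0215 from limma) the class means ran from 11.36 ± 0.13 (SD, 8 cows) in Summer2010 to 11.84 ± 0.17 (SD, 3 cows) in Summer2004. For ITGB1BP1 (F = 2.54, adjusted p = 0.0076) they ran from 7.94 ± 0.05 (SD, 2 cows) in Summer2006 to 8.68 ± 0.08 (SD, 2 cows) in autumn2011. Without the cows of year 7 neither was called (adjusted p = 0.337 for ITGA9 and 0.119 for ITGB1BP1), when 5.31% of all transcripts were, and ITGA9 was called neither without those of year 1 (adjusted p = 0.102) nor without those of year 8 (0.0891).

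Age at slaughter, summer against winter and the joint test of all seasons each called 0 of the 31 transcripts, and 0% of all transcripts (limma, adjusted p). At an unadjusted p under 0.05, 3 of the 31 had a slope on age, 8 a difference of summer from winter and 2 a difference between any seasons, against 930, 1477 and 1020 of all transcripts. TIMP1, an inhibitor of most secreted MMPs, had the smallest p for summer against winter. Its median was 10.78 in summer, with values of 9.87 to 11.39 in 45 cows, and 10.61 in winter, with values of 10.14 to 11.00 in 26 cows. The fitted difference was 0.19 log2 units (standard error 0.065, 95% interval 0.058 to 0.31, adjusted p = 0.244). LAMA2 had a difference of -0.22 (0.090, 95% interval -0.39 to -0.038, adjusted p = 0.312), with medians of 7.68 in summer and 7.95 in winter. Chromaffin markers also had higher estimates in summer, between 0.54 and 0.71 log2 units for their 5 genes (adjusted p from 0.244 to 0.312), and their part in these values was not tested.

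Partner genes outside the 31 were followed in lists of pathways. Of 15 measured genes of the integrin adhesion complex on the inner side of the membrane, 9 fell with the year and none rose, beside 19.2% of all transcripts that fell. PTK2, the focal adhesion kinase, fell each year by 0.029 log2 units (0.0065, adjusted p = 9.3e-05), TNS1, a tensin, by 0.030 (0.0071, adjusted p = 2.19e-04) and FLNA, a filamin that binds actin, by 0.054 (0.014, adjusted p = 0.00101). FERMT2, a kindlin that activates integrins, fell by 0.040 (0.015, adjusted p = 0.0244). With the first principal component as a covariate 5 of the 15 fell, and in the cows of years 4 to 8 2 fell, beside 17.4% and 11.8% of all transcripts.

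The other lists had few calls, beside 25.7% of all transcripts that rose and 19.2% that fell. Of 9 proteoglycans and basement membrane partners 2 fell, namely PRELP by 0.083 per year (0.018, adjusted p = 7.6e-05) and OGN by 0.062 (0.019, adjusted p = 0.00534), both small leucine-rich proteoglycans. Of 7 glycoproteins and elastic fibre genes none was called, FN1, fibronectin, having a slope of -0.036 (0.024, adjusted p = 0.214). Of 10 genes of collagen processing PPIB rose and BMP1 fell, and of 6 genes of the TGF-beta pathway TGFBR1 fell by 0.050 (0.016, adjusted p = 0.00693). Of the cell type markers, 1 of 6 fibroblast and capsule genes (PDGFRA) and 1 of 5 pericyte and smooth muscle genes (PDGFRB) fell, 1 of 8 endothelial genes (PECAM1) and 2 of 7 leukocyte genes (AIF1 and TYROBP) rose, and none of the 5 chromaffin genes was called. Of the 8 adrenocortical markers CYP11A1 and FDX1 rose and SCARB1 fell. Over all transcripts 25.7% rose and 19.2% fell, so these small counts set none of the marker lists apart. The mean of the fibroblast and capsule markers was 8.33 to 9.94 in the cows of year 8 and 8.76 to 9.48 in those of year 1, and its part in the falling matrix genes was not tested.

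The next comparison asked whether genes paired by a known relation of their proteins, mostly binding or inhibition, varied together over the cows. Of 59 pairs written down from textbook knowledge both genes were measured in 12, and in 7 of the 12 the residuals of class and age were correlated (two-sided permutation test over 145 cows, adjusted over 12 pairs). Of all 461 pairs of different genes among the 31 transcripts, 276 were called in the same test (adjusted over 465 pairs), so partners were called about as often as any members. Cows of a family were permuted as if independent, so p-values may be too small. Subunits of laminin receptors gave the closest relation, with r = 0.75 between ITGA6 and ITGB1 (rho = 0.72, adjusted p = 4e-05, 0.73 once the 2 most distant cows by ITGA6 were dropped). ITGAV and ITGB1 had r = 0.68 (rho = 0.68, adjusted p = 4e-05, 0.68 without 2 cows). With the first principal component removed these fell to 0.31 (adjusted p = 6.6e-04) and 0.18 (adjusted p = 0.046).

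Some pairs turned round when this component was removed. ITGAV and ITGB5, which form a vitronectin receptor, had r = -0.27 (rho = -0.29, adjusted p = 0.00262, -0.26 without 2 cows) and 0.47 (adjusted p = 4e-05) after removal, and without the cows of year 5 its r was -0.19 (adjusted p = 0.0758). ITGA3 and ITGB1 had r = -0.39 (rho = -0.37, adjusted p = 6e-05, -0.36 without 2 cows) and 0.09 (adjusted p = 0.355) after it. ITGA9 and ITGB1, its sole known beta partner, had r = -0.10 (rho = -0.09, adjusted p = 0.257, -0.14 without 2 cows) and 0.14 after removal (adjusted p = 0.143).

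ADAMTS1 and its inhibitor TIMP3 had r = 0.42 (rho = 0.41, adjusted p = 4e-05, 0.38 without 2 cows) and 0.41 with the component removed. ADAMTS5, another protease of aggrecan, had r = 0.04 with TIMP3 (rho = 0.05, adjusted p = 0.642). ADAMTS1 and ADAMTS5 are neighbours in the RefSeq annotation with no other protein-coding gene between them, and had r = 0.15 (rho = 0.15, adjusted p = 0.115), or 0.20 with the component removed (adjusted p = 0.0282). LAMA2 and LAMB1 had r = 0.28 (rho = 0.27, adjusted p = 0.00139, 0.25 without 2 cows), and LAMA4 and LAMB1 0.13 (rho = 0.11, adjusted p = 0.176). MMP2 and TIMP2 had r = 0.04 (rho = 0.02, adjusted p = 0.642), and -0.11 with the component removed (adjusted p = 0.276). TIMP2 stood here for cluster 12760918, which differed little between cows (residual SD 0.095), and its other transcript was not used in the partner pairs. FBN1 and FBLN5 had r = 0.23 over all cows (rho = 0.23, adjusted p = 0.00945, 0.23 without 2 cows) and 0.47 with the component removed (adjusted p = 4e-05). Within the 64 cows of the lower FBLN5 component their r was 0.15 and within the 81 of the upper one 0.12, each over a narrower range of FBLN5.

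**Figure D4:**
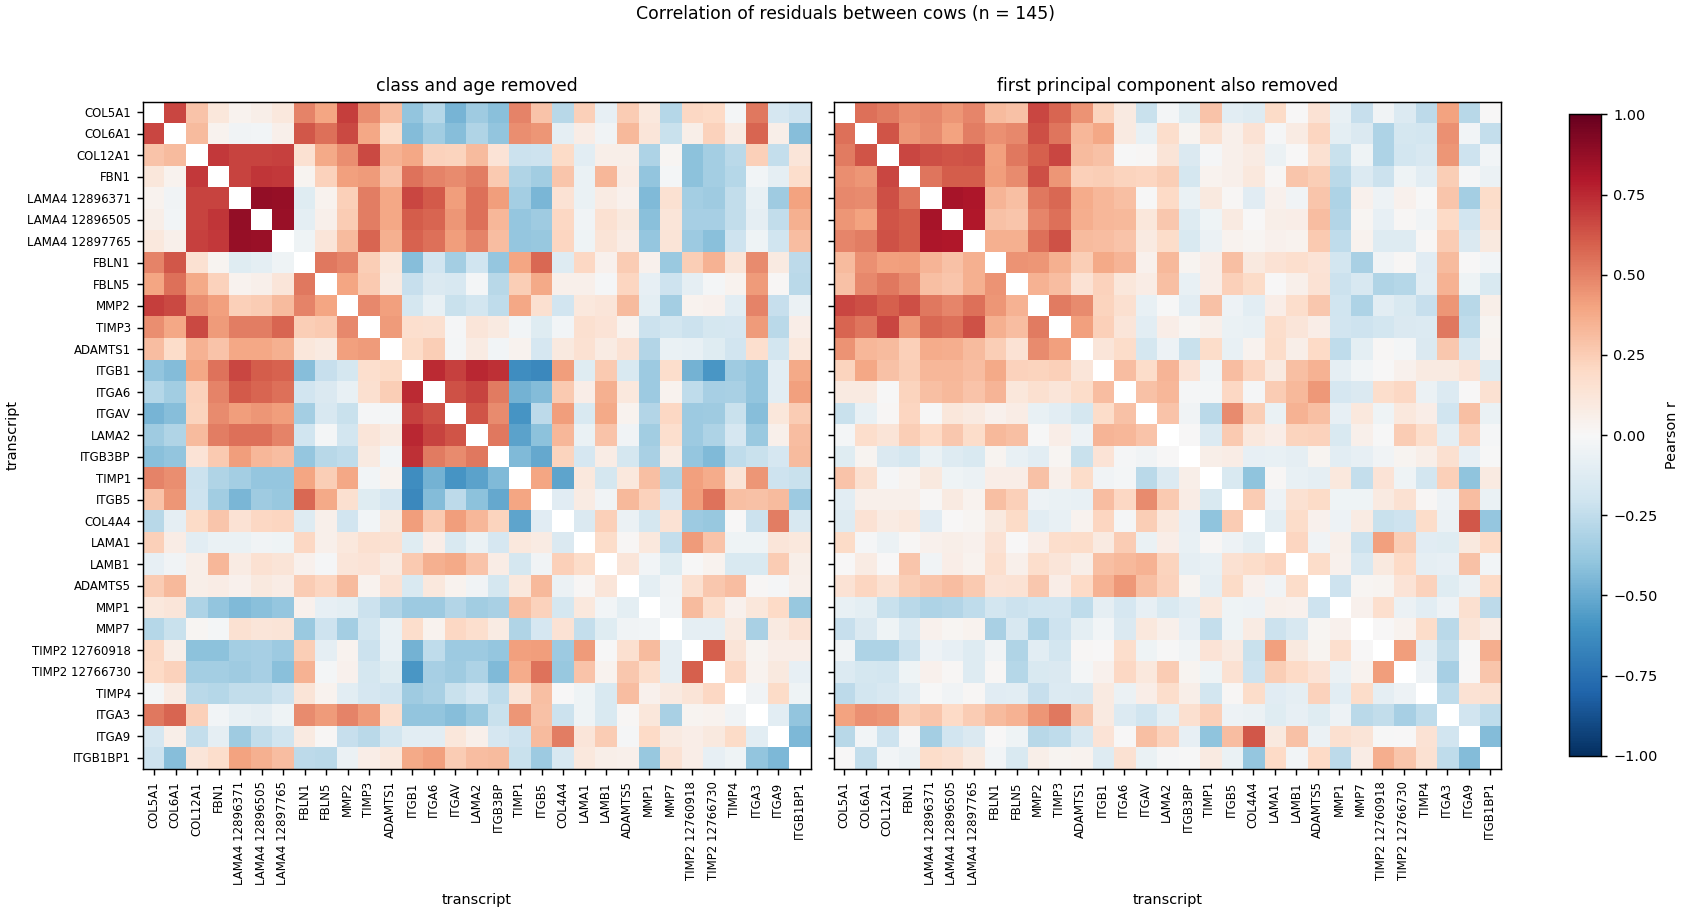
Pearson correlation of residuals over 145 cows for 31 transcripts on both axes, after class and age were fitted (left) and with the first principal component also removed (right). ITGB1 and ITGA6 have r = 0.75 on the left and 0.31 on the right, whereas COL12A1 and FBN1 have 0.71 and 0.66.

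Over the 461 pairs of different genes, 8.89% had r above 0.5, beside 9.03% of all 60340605 pairs of transcripts. With the first component removed the share was 5.86% (27 pairs), beside 0.584% of all pairs. Pairs of a gene set share their transcripts and are not independent. LAMA4 and TIMP2 count with each of their transcripts, so pairs that hold these genes are counted more than once. Of these 27 pairs, 25 lay among 9 genes, picked after the values were seen and so without a test: COL5A1, COL6A1, COL12A1, LAMA4, FBN1, FBLN1, FBLN5, MMP2 and TIMP3. The median r of their 52 pairs, with each LAMA4 transcript counted, was 0.39, and 0.49 with the component removed.

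COL12A1 and FBN1 had r = 0.71 (rho = 0.68, adjusted p = 3.5e-05 over 465 pairs, 0.68 without the 2 farthest cows, 0.66 with the component removed). COL5A1 and MMP2 had r = 0.69 (rho = 0.66, adjusted p = 3.5e-05, 0.64 without 2 cows, 0.67 after removal). COL12A1 and TIMP3 had r = 0.66 (rho = 0.65, adjusted p = 3.5e-05, 0.64 without 2 cows, 0.67 after removal). FBLN1 and COL6A1 had r = 0.47 within the 133 cows of the upper FBLN1 component and 0.05 within the 12 of the lower one. The 3 LAMA4 transcripts were correlated with each other at r = 0.86 to 0.88.

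Of the other 2 pairs above 0.5 with the component removed, 1 joined ITGA3 with TIMP3 (r = 0.43, rho = 0.39, adjusted p = 3.5e-05, 0.52 after removal). The second joined ITGA9 with COL4A4, both of which fell with the year. Within the COL4A4 components their r was 0.51 over 128 cows and 0.47 over 17. ITGA9 was also correlated with ITGB1BP1, which rose with the year, at r = -0.45 (rho = -0.47, adjusted p = 3.5e-05, -0.43 after removal). The year itself is not part of these residuals.

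The members were last set against the mean residual of the markers of each cell type, in 248 correlations of residuals over the 145 cows. Genes were not scaled before the mean was taken, so those that differed more between cows weighed more. Among the adrenocortical markers NR5A1 had an SD of 0.22 and HSD3B1 0.035, and among the fibroblast and capsule markers RSPO3 had 0.91 and PDGFRA 0.30. Some of the genes picked above for their pairs followed the fibroblast and capsule markers, a list of 6 measured genes that holds the matrix proteoglycans DCN and LUM. COL12A1 had r = 0.75 with them (rho = 0.74, adjusted p = 5.6e-05, 0.75 without 2 cows, 0.73 with the first component removed), MMP2 0.59 (rho = 0.60, adjusted p = 5.6e-05, 0.73 after removal) and TIMP3 0.61 (rho = 0.63, adjusted p = 5.6e-05, 0.61 after removal). FBN1 had r = 0.61 (rho = 0.58, adjusted p = 5.6e-05, 0.55 after removal). COL5A1 and COL6A1 had 0.35 (rho = 0.34, adjusted p = 1.8e-04, 0.60 after removal) and 0.31 (rho = 0.32, adjusted p = 8e-04, 0.62 after removal), FBLN5 had 0.24 (rho = 0.21, adjusted p = 0.0104, 0.38 after removal), and FBLN1 had 0.05 (rho = 0.05, adjusted p = 0.657, 0.28 after removal). With the adrenocortical markers FBLN1 had r = 0.29 (rho = 0.28, permutation test, adjusted p = 0.00193, 0.10 after removal). MMP2 also followed the pericyte and smooth muscle markers at r = 0.59 (rho = 0.58, adjusted p = 5.6e-05, 0.60 after removal). The LAMA4 transcript of cluster 12897765 had r = 0.58 with the endothelial markers (rho = 0.55, adjusted p = 5.6e-05, 0.53 without 2 cows, 0.62 after removal). Its r with the fibroblast and capsule markers was as high, 0.60 (0.53 after removal). The other LAMA4 transcripts had 0.58 and 0.57 with the fibroblast and capsule markers and 0.51 and 0.54 with the endothelial ones.

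Other members followed the adrenocortical markers instead. TIMP2 cluster 12760918 had r = 0.53 with them (rho = 0.50, adjusted p = 5.6e-05, 0.50 without 2 cows, 0.42 after removal) and LAMA1 0.43 (rho = 0.36, adjusted p = 5.6e-05, 0.41 without 2 cows, 0.41 after removal). ITGA9 had 0.29 (rho = 0.31, adjusted p = 0.00139, 0.25 after removal), and -0.41 with the fibroblast and capsule markers (rho = -0.39, adjusted p = 5.6e-05, -0.39 after removal). MMP7 was correlated with S100B, the only measured Schwann cell marker, at r = 0.45 (rho = 0.41, adjusted p = 5.6e-05, 0.44 after removal). This was not particular to MMP7, because 12 of the 31 were called with a positive r to S100B and 10 with a negative one. After removal these were 5 and 6. Larger r were those of ITGB1 (0.64, 0.11 after removal) and ITGA3 (-0.60, -0.46 after removal), among others. TIMP1 was correlated with the chromaffin markers (r = 0.21, rho = 0.25, adjusted p = 0.0236, 0.40 after removal). It had r = 0.34 with the pericyte and smooth muscle markers (0.42 after removal). TIMP1 was the only 1 of the 31 called with a positive r to the chromaffin markers. By contrast 13 were called with a negative r, and the median r was -0.15. With the component removed 2 were called positive and 13 negative. Such correlations do not tell a change in the share of a cell type from a change within its cells.

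**Figure D5:**
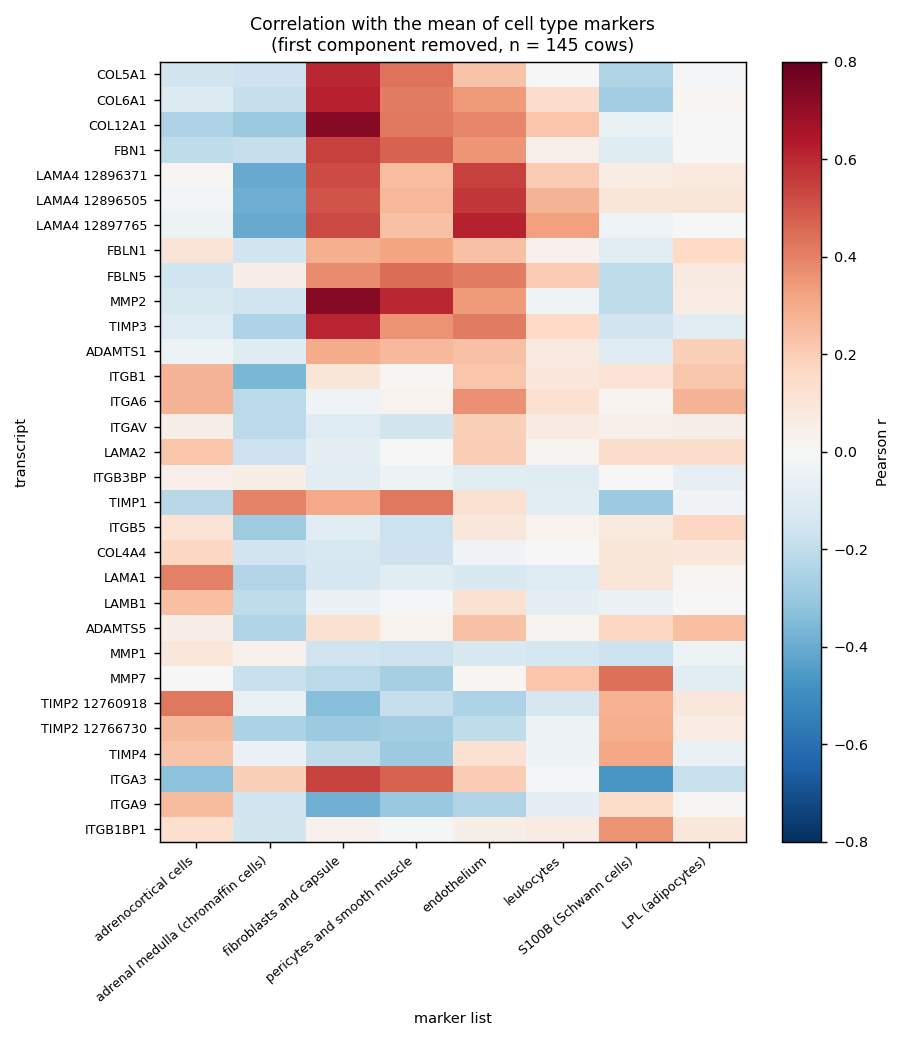
Pearson correlation over 145 cows between the residuals of 31 transcripts (down the page) and the mean residual of cell type markers (across), with the first principal component removed. COL12A1 and MMP2 reach 0.73 with the fibroblast and capsule markers, and TIMP2 cluster 12760918 reaches 0.42 with the adrenocortical markers.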

How the data were processed

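Expression was measured in the adrenal cortex of 145 cows on 1 array each. The deposited log2 signals of 10986 transcripts came from RMA (background correction, quantile normalization and probe summary), which the authors ran in Expression Console, keeping transcripts detected above background. Quantile normalization gives all arrays nearly the same distribution, so a change common to most transcripts is not visible. The platform gave 1 symbol to 8863 transcripts, several to 377 and none to 1746. Of the 31 members 30 carried a gene identifier, and all 30 were found under the same symbol in the RefSeq table (ARS-UCD2.0). Its coordinates were not used, because the authors placed transcripts on UMD3.1. Of the deposited columns, 2 were empty and stayed out.

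Values were fitted in limma 3.58.1 (R 4.3.3). A fit of year-season class and age tested the 25 classes jointly and the slope on age, and its residuals (119 degrees of freedom) served the correlations. Season, year and age, with the class as a random block (statmod 1.5.0), gave the slope on year, summer minus winter and the F-test over seasons. P-values were adjusted by Benjamini-Hochberg over all transcripts at a threshold of 0.05. The sire and dam terms of the study's model were not fitted, because the pedigree was not analysed here. The number of normal components with a shared variance in each transcript's residuals was selected by BIC in mclust 6.1.1. Correlations used 100000 permutations of the cows, of which the smallest possible p is 1e-05. A symbol with several transcripts was represented in pairs and lists by that with the highest mean. Fits were also run on simulated data of independent normal noise. These had no shared component and no related cows, so they say nothing about the effect of either. Correlations and figures used numpy 2.4.6, scipy 1.17.1 and matplotlib 3.10.9 in Python 3.11.15.

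The members and lists were chosen with earlier results of these data known. Members were named by family, by the largest changes called, by the largest and smallest residual SD and by partner pairs. Lists were named by up to 4 genes with the largest change. Genes named outside these rules were chosen after their values were seen. Alternatives were no block, the first principal component as a covariate, only transcripts with a mean of at least 6, normal scores, another variance prior, another year for winter, only cows of years 4 to 8, only classes of at least 4 cows, and each year left out. The number of arrays limits the precision.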

Additional observations from a re-analysis of the deposited data

Results flagged for a closer look

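In the years with 4 to 10 cows, which were years 1 and 3, the values of each of the 31 transcripts were searched for a single cow far from the rest, with Dixon's ratio of the gap to the range. Such a cow was found in 7 of 62 sets of values, and chance flags about 5% of sets. In year 1 the lowest cow had a log2 signal of 8.05 for COL4A4 (the nearest of the other cows 8.24), 10.32 for FBLN1 (10.94) and 11.64 for TIMP3 (11.92), and the highest had 7.30 for MMP1 (6.74). In year 3 the lowest cow had 7.60 for COL4A4 (8.16), and the highest had 10.91 for LAMA1 (10.13) and 13.18 for TIMP2 cluster 12760918 (12.98). Without the cows of year 1, MMP1 had an adjusted p of 0.0711 for the slope on year, and without those of year 3 no call for the slope on year was lost among the 31.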

How the results depend on the processing

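The count of 14 transcripts called for the slope on year was 10 with the first principal component as a covariate, 12 in the cows of years 4 to 8, and 13 or 14 without the block, with only transcripts of mean 6 or more, on normal scores and with another variance prior. Counting winter for the year it ended in cannot move this slope, because the season term takes up the shift, and so says nothing about stability. Leaving out 1 year at a time gave 9 (without year 2 or 8) to 16 (without year 1). ITGB1 changed sign with the covariate (0.0085 per year, adjusted p = 0.225). The count of 2 called over classes was 4 with the covariate and 0 (without year 7) to 2 with a year left out, beside 11.6% of all transcripts in the report's fit, 23.0% with the covariate and 5.31% without year 7. The counts of 0 among the 31 for age and both season tests stayed 0 under every alternative run for them. Of 12 partner pairs, 7 were called. The sign of r turned on removal of the first component for ITGA3 with ITGB1 (0.087) and for ITGAV with ITGB5 (0.47), and among pairs not called for ITGA9 with ITGB1 (0.14) and MMP2 with TIMP2 (-0.11). No paired analysis was possible because each cow gave 1 array, and the families of the cows were not used. The correlation within classes was estimated at -0.015, so the block changed little. Over all transcripts 3673 to 5127 were called for the year under the alternatives. The count of the adhesion complex list under each setting was added after the data were seen. Probes report signal and not molecules, and the number of cows in the early years limits the slopes.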
